A study of Rattus norvegicus with 9 samples.

Results

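The transcripts of 10 genes of the circadian clock, Per1, Per2, Per3, Cry1, Cry2, Bmal1, Clock, Dbp, Nr1d2 and Bhlhe40, were followed in pancreatic islets of male Zucker Diabetic Fatty (fa/fa) rats on 9 Affymetrix rat genome arrays. The genes were chosen by name, as probe sets whose symbol in the platform annotation was one of the 10, and they are 10 of 14217 genes named on the array. They were read by 18 probe sets. All groups carried the fa mutation of the leptin receptor, which makes the rats obese, and all were fed the Purina 5008 diet. No lean rats and no other diet therefore enter these comparisons. The treated group ate powdered rosiglitazone tablets, at 3 mg of drug per kg, from week 5 to week 9, and islets were taken at 9 weeks of age. Rosiglitazone is an insulin sensitizer that activates PPAR gamma. The withdrawal group received the same drug from week 5 to week 9 and was sampled at 11 weeks, 2 weeks after it was stopped. Islets of untreated rats came at 13 weeks. There were 3 arrays to a group, labelled as biological replicates, and the study randomised 24 animals over its groups and ages; whether islets of several animals were pooled for an array was not stated. Treatment and age cannot be told apart in any comparison. The labels give no hour of islet collection, and its part in any difference below was not tested.

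The circadian clock of mammalian cells is a feedback loop of transcription. The activators CLOCK and BMAL1 bind E-boxes in the genes of their own inhibitors, the PER and CRY proteins, and a further loop of ROR activators and REV-ERB repressors acts on Bmal1 through ROR elements, so that Bmal1 transcripts peak at about the opposite time of day to those of Dbp, Per and REV-ERB genes. Islets have such a clock, and its loss in mouse beta cells impairs insulin secretion. Because these transcripts follow the time of day, a value from a single time point mixes position in the cycle with level, and cannot tell them apart.

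Values are the deposited log2 values of probe sets, in which a difference of 1 is a change by a factor of 2 on the scale of the array. The standard deviation over all probe sets of an array ran from 1.649 to 1.997, and the arrays were not on identical distributions. The differences that matter are therefore also given after quantile normalization, which makes the distributions equal. Islet endocrine markers were bright on every array, with a mean over 7 of 12.75 to 12.89 on treated, 11.93 to 12.17 on withdrawal and 12.10 to 12.36 on untreated arrays. Acinar markers were bright as well, at 13.79 to 13.94, 13.72 to 13.90 and 13.75 to 13.91 on the same groups, so the preparations held RNA of exocrine cells. Fewer cells of a type and less RNA per cell cannot be told apart in such bulk samples. The first treated array stood apart, with the widest spread of values. It had the highest means of islet endocrine, macrophage, duct, endothelial and stellate cell markers, but not of acinar and lymphocyte markers. These means are of deposited values and were not quantile normalized. Results that rest on this array are given with and without it.

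Of the 18 clock probe sets, 15 passed the filter on dim probe sets and were tested, and all 10 genes had at least 1 of these. The 3 left out were 1 each of Per3, Clock and Nr1d2, at means of 3.54, 4.84 and 4.61 over the arrays. In treated against untreated islets, limma called 3 of 15 clock probe sets higher (adjusted p under 0.05), against 20.9% of all 20695 probe sets tested, and 0 lower, against 7.24%. The median clock difference was 0.21, beside 0.16 for all probe sets tested. After quantile normalization 2 were called higher, against 7.75% of all, and the medians were 0.09 and 0.02. In withdrawal against untreated islets 0 clock probe sets were called, against 0.159% of all and 0.42% after quantile normalization, where the count was also 0; 2 had an unadjusted p under 0.05 as deposited, against 7.5% of all, and 1 after quantile normalization, against 10.5%. In withdrawal against treated islets 4 clock probe sets were lower, against 32.6% of all, and 0 higher, against 11.2%. The median was −0.38, beside −0.19 for all, and after quantile normalization 3 were lower, against 14.6%. As deposited, the clock counts were close to or below the share of all probe sets called, and after quantile normalization those called higher in treated against untreated islets and lower in withdrawal against treated islets were above it by less than 1 probe set. Each group enters 2 of the 3 comparisons, which are therefore not independent.

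**Figure D1:**
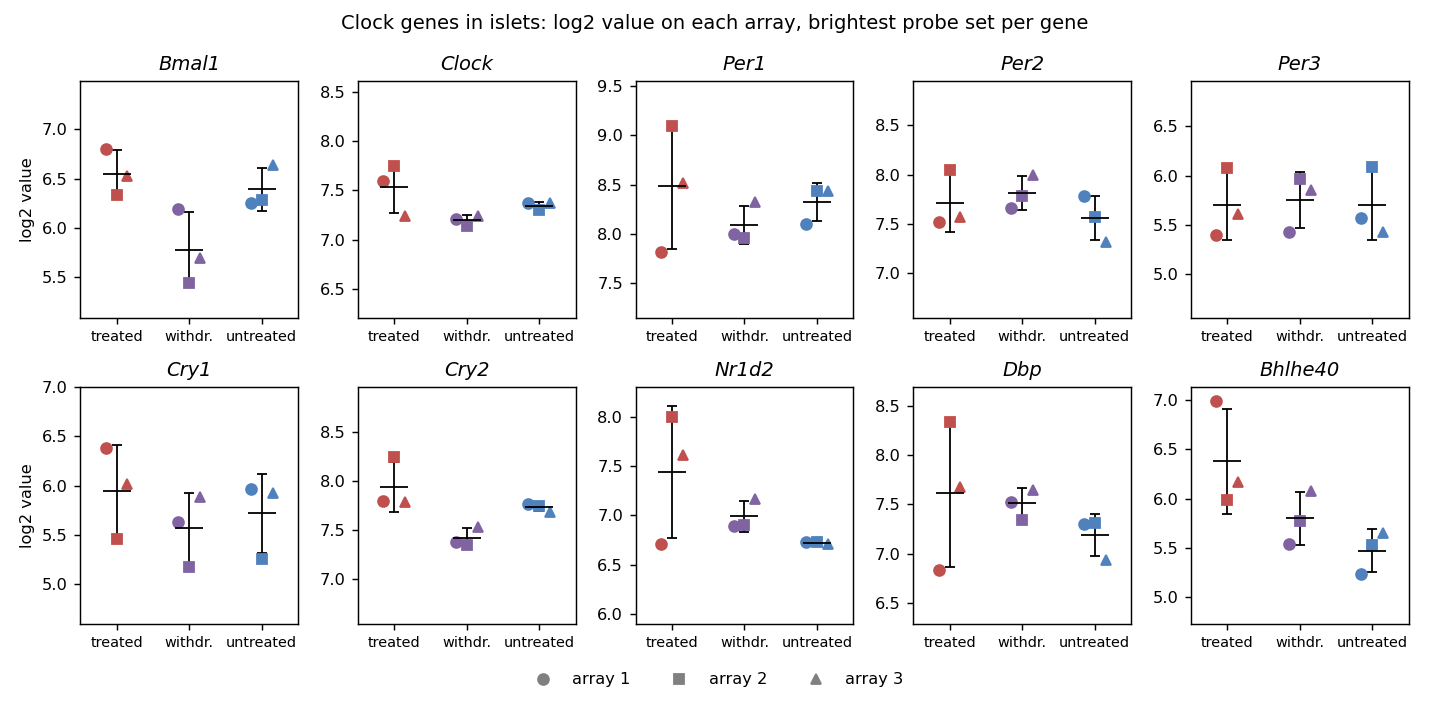
Log2 value (y axis) of each of the 10 clock genes on the 9 arrays, by group (x axis: treated, withdrawal, untreated), for the probe set with the highest mean; colours mark groups, symbols mark array numbers, and horizontal lines with bars are the mean ± SD (n = 3). Bmal1 averaged 5.78 on withdrawal arrays, below 6.55 on treated and 6.39 on untreated arrays, and Dbp and Nr1d2 spread over more than 1 log2 unit on treated arrays.

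Among the activators, Bmal1 was lower after withdrawal than under the drug, and Clock was higher under the drug at 2 of its 3 tested probe sets. Bmal1, which encodes the partner of CLOCK in binding E-boxes, had values of 6.19, 5.44 and 5.69 on withdrawal arrays, against 6.80, 6.33 and 6.53 on treated arrays and 6.25, 6.28 and 6.64 on untreated arrays. Every withdrawal array lay below every array of the other groups, with the first withdrawal array nearest to them. Against treated islets Bmal1 fell by 0.78 ± 0.20 (SE, n = 3 per group; limma adjusted p = 0.00891), a 1.71-fold change, and by 0.73 after quantile normalization (adjusted p = 0.0179). The call held in all 9 fits that left out an array, with the highest adjusted p at 0.0496. Against untreated islets the difference was −0.62 ± 0.20 (95% interval −1.05 to −0.19) and did not pass over all probe sets (adjusted p = 0.449). It passed there with array weights, at −0.66 (adjusted p = 0.0105), a setting that called 15.8% of all probe sets, and then 3 of 15 clock probe sets, those of Bmal1, Clock 1390199_at and Cry2 1372548_at, all lower. Between treated and untreated islets Bmal1 differed by 0.16 ± 0.20 (95% interval −0.27 to 0.59; adjusted p = 0.56). Islet endocrine markers also averaged lower on withdrawal than on treated arrays, as given above, and lymphocyte markers (4 of 4 on the array) averaged 6.15 to 6.38 on withdrawal arrays, against 5.38 to 5.68 on treated and 6.01 to 6.25 on untreated arrays; their part in the differences of Bmal1, Clock and Cry2 was not tested.

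The promoter of rat Bmal1 is shown because the ROR and REV-ERB arm of the clock acts on it. From 250 bases before to 50 after the annotated start, on build GRCr8 at chr1:176766078-176766377, plus strand, with sequence from RefSeq, it holds 1 match, in capitals, to AGGTCA, the core that ROR and REV-ERB proteins bind, 15 bases before the start.
Bmal1: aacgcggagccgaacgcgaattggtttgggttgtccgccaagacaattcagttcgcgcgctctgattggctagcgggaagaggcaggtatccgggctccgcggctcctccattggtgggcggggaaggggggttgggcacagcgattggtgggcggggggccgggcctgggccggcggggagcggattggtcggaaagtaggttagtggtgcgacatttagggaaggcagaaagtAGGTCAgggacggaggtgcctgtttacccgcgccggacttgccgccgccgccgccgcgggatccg
The letters AGGTCA, on either strand, occur in 16.2% of the 33469 rat promoters of this length in the table, so a match is common and is given as a description only.

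Npas2, a CLOCK relative that can take its place beside BMAL1, ran in the same direction as Bmal1 without passing. It had 5.46, 4.81 and 4.55 on withdrawal arrays, against 5.78, 5.18 and 5.22 on treated and 5.66, 5.41 and 5.56 on untreated arrays. The withdrawal minus treated difference was −0.45 ± 0.22 (adjusted p = 0.118), and −0.52 after quantile normalization (adjusted p = 0.1). On the withdrawal arrays Bmal1 and Npas2 were both highest on the first array, and their SDs there, 0.382 and 0.471, were larger than those of 99.3% and 99.7% of all tested probe sets. Cry1, with an SD of 0.361 there, was larger than 99.0%, but was highest on the third array. Its spread was not particular to withdrawal, with SDs of 0.402 on untreated and 0.464 on treated arrays, larger than those of 99.1% and 89.8%.

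Clock, the histone acetyltransferase and partner of BMAL1, was read by 3 tested probe sets, which did not give the same result. Probe set 1380098_at had 6.60, 6.44 and 6.62 on treated arrays, against 5.77, 5.79 and 5.99 on withdrawal and 5.89, 5.71 and 6.14 on untreated arrays. All treated arrays lay above all others. It rose by 0.64 ± 0.14 in treated against untreated islets (adjusted p = 0.00802) and fell by 0.71 ± 0.14 in withdrawal against treated islets (adjusted p = 0.0026), and by nearly as much after quantile normalization, at 0.59 (adjusted p = 0.0136) and −0.67 (adjusted p = 0.00498). Both calls held with each array left out in turn.

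Clock probe set 1390199_at had 7.87, 7.56 and 7.31 on treated arrays, against 6.72, 6.73 and 6.81 on withdrawal and 7.21, 6.68 and 7.14 on untreated arrays. Treated arrays lay above all others, with the lowest of them close to the highest untreated array. It rose by 0.57 ± 0.17 in treated against untreated islets (adjusted p = 0.0309), but after quantile normalization the difference was 0.35 (adjusted p = 0.0867). That call was also lost without the first treated array (0.42, adjusted p = 0.0505), without the second untreated array (0.40, adjusted p = 0.137), with array weights (0.27, adjusted p = 0.121), and when withdrawal arrays were kept out of the fit (adjusted p = 0.0754). In withdrawal against treated islets it fell by 0.82 ± 0.17 (adjusted p = 0.00359), and by 0.59 after quantile normalization (adjusted p = 0.00959). The brightest probe set of Clock, 1389456_at, had 7.60, 7.75 and 7.24 on treated, 7.21, 7.14 and 7.24 on withdrawal and 7.37, 7.30 and 7.37 on untreated arrays, and passed in no comparison. Its treated minus untreated difference was 0.19 ± 0.14 (adjusted p = 0.317) and turned to −0.04 after quantile normalization. Its withdrawal minus treated difference was −0.33 (adjusted p = 0.069), and it passed without the third treated array, at −0.48 (adjusted p = 0.0124). A direction for Clock thus rests on 2 of its 3 tested probe sets.

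**Figure D2:**
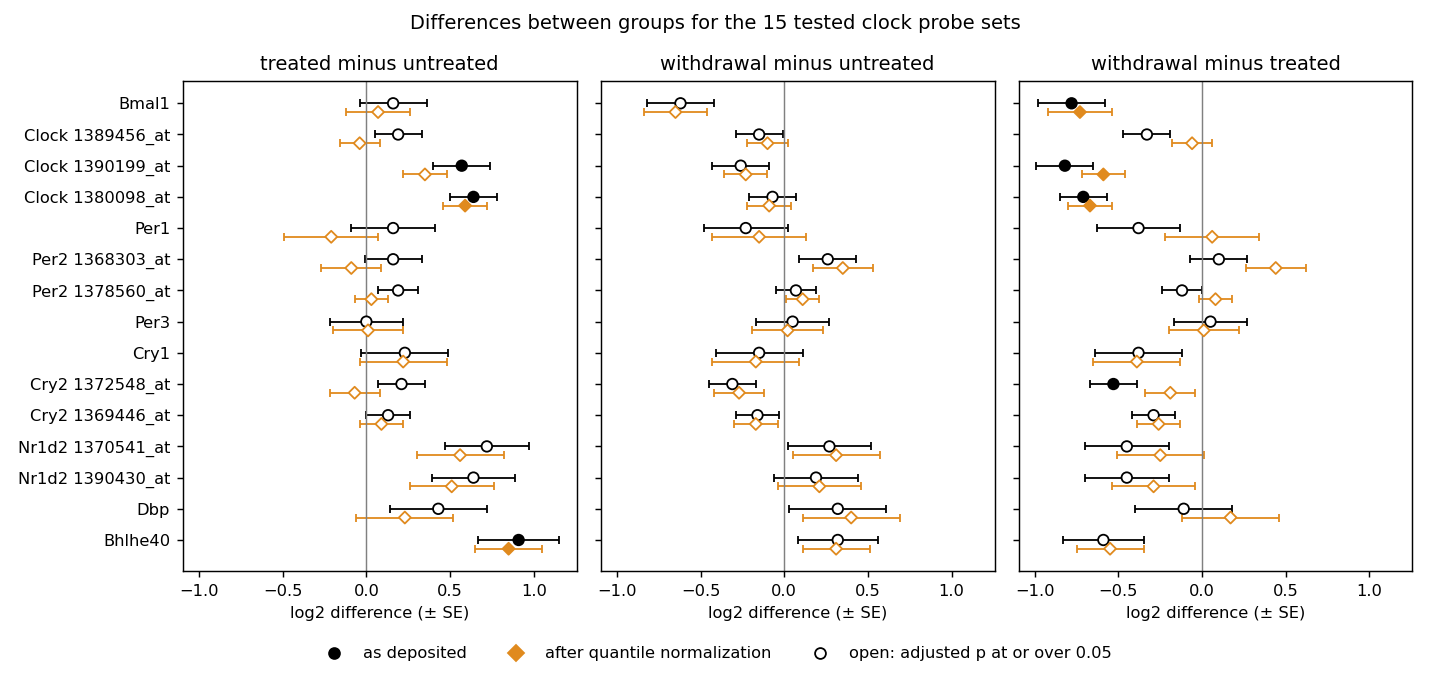
Log2 differences (x axis, ± SE, n = 3 arrays per group) of the 15 tested clock probe sets (rows) in the 3 comparisons (panels), as deposited (black circles) and after quantile normalization (orange diamonds); filled symbols passed an adjusted p of 0.05. Bmal1 and 2 Clock probe sets are filled below 0 in withdrawal minus treated on both scales, and no symbol is filled in withdrawal minus untreated.

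Among the inhibitors, the Per genes passed in no comparison as deposited or after quantile normalization of all arrays, and of the Cry genes Cry2 was lower after withdrawal at 1 probe set. Per1, whose transcription also responds to cAMP and glucocorticoid signals, had 7.82, 9.09 and 8.52 on treated arrays, against 8.0, 7.96 and 8.32 on withdrawal and 8.10, 8.43 and 8.43 on untreated arrays. The treated arrays enclosed all others, with the first the lowest of the 9 and the second the highest. The treated minus untreated difference was 0.16 ± 0.25 (adjusted p = 0.663) and turned to −0.21 after quantile normalization. Without the first treated array it was 0.49 ± 0.17 (adjusted p = 0.0422), and 0.16 (adjusted p = 0.537) when the arrays were also quantile normalized. Without the second treated array it was −0.15 and did not pass. Withdrawal minus treated was −0.38 (adjusted p = 0.24), and 0.06 after quantile normalization. It passed with array weights (−0.54, adjusted p = 0.00852) and without the first treated array (−0.71, adjusted p = 0.0037), but not when the remaining arrays were also quantile normalized (−0.31, adjusted p = 0.192). Without the second treated array it was −0.08 and did not pass.

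Per2, a stoichiometric inhibitor of CLOCK and BMAL1, had 7.52, 8.05 and 7.57 on treated, 7.66, 7.78 and 8.0 on withdrawal and 7.78, 7.57 and 7.32 on untreated arrays at its brighter probe set, 1368303_at, and the groups overlapped. Withdrawal minus untreated was 0.26 ± 0.17 (95% interval −0.12 to 0.63; adjusted p = 0.812) and withdrawal minus treated 0.10, or 0.44 after quantile normalization (adjusted p = 0.0869). The other probe set of Per2, 1378560_at, ran from 6.86 to 7.20 over all arrays, and its treated minus untreated difference was 0.19 (adjusted p = 0.236). Per3, a PER protein dispensable for rhythms in the mouse, ran from 5.4 to 6.08 on treated, 5.43 to 5.97 on withdrawal and 5.43 to 6.09 on untreated arrays. Its treated minus untreated difference was 0.00, with a 95% interval of −0.48 to 0.48, so a difference of either sign within that range is compatible with the values.

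The promoter of rat Per2, on GRCr8 at chr9:99496944-99497243, minus strand, from RefSeq, is shown because it holds an element of CLOCK and BMAL1 and one of DBP within 250 bases of the start. Capitals mark CACGTT, a variant E-box bound by CLOCK and BMAL1, 62 bases before the start, and TTATGTAA, a D-box of the kind that DBP activates and NFIL3 represses, 192 bases before it.
Per2: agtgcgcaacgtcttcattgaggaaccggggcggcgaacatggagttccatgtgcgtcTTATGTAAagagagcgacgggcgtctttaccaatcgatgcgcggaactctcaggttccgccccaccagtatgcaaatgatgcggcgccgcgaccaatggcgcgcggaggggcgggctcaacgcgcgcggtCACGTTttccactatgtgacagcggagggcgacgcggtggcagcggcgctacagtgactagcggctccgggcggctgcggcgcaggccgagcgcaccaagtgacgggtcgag
On either strand CACGTT occurs in 4.83% and TTATGTAA in 0.893% of all promoters in the table. The promoters of 9 of the 10 clock genes were in it. Searches of both strands for the E-box CACGTG, its variant CACGTT, the D-box, the core AGGTCA and the cAMP response element TGACGTCA (in 1.83% of all promoters) found a match in 5 of their 10 promoter windows, which include 2 of Clock. These were Per2, Bmal1 and Bhlhe40, with Cry2 (CACGTT, 212 bases before the start) and Nr1d2 (AGGTCA, 187 bases before).

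Cry1, a repressor late in the cycle, had 6.38, 5.46 and 6.02 on treated, 5.63, 5.18 and 5.89 on withdrawal and 5.97, 5.26 and 5.93 on untreated arrays. The second array was the lowest of its group in all 3 groups, and no difference passed, the largest being −0.38 ± 0.26 for withdrawal minus treated (95% interval −0.95 to 0.19; adjusted p = 0.251). Cry2, the paralog of Cry1, had 7.38, 7.35 and 7.53 on withdrawal arrays at probe set 1372548_at, against 7.80, 8.24 and 7.79 on treated and 7.76, 7.74 and 7.68 on untreated arrays. The withdrawal arrays lay below all others. It fell by 0.53 ± 0.14 in withdrawal against treated islets (adjusted p = 0.0107). After quantile normalization the difference was −0.19 (adjusted p = 0.332). The dimmer Cry2 probe set, 1369446_at, differed by −0.29 (adjusted p = 0.0979), and by −0.37 without the first treated array (adjusted p = 0.0354). With array weights it differed by −0.32 (adjusted p = 0.0323).

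Nr1d2, Dbp and Per1 had the widest spread of the clock genes, and it lay within the treated group. Nr1d2, which encodes the heme receptor and repressor REV-ERB beta, had 6.71, 8.0 and 7.61 on treated arrays at probe set 1370541_at, against 6.89, 6.90 and 7.17 on withdrawal and 6.73, 6.73 and 6.71 on untreated arrays. The second and the third treated arrays lay above all others, while the first lay at the level of untreated islets. Treated minus untreated was 0.72 ± 0.25 (adjusted p = 0.0507), past the threshold when arrays were centred on their medians (0.73, adjusted p = 0.0474), and 0.56 after quantile normalization (adjusted p = 0.149). Without the first treated array it was 1.09 ± 0.14 (adjusted p = 9.41e-05), and 0.92 ± 0.12 (adjusted p = 0.000763) with quantile normalization as well. Without the second treated array it was 0.44 and did not pass. Nr1d2 probe set 1390430_at gave like values, with 6.47, 7.79 and 7.22 on treated, 6.59, 6.71 and 6.84 on withdrawal and 6.45, 6.64 and 6.49 on untreated arrays. Its treated minus untreated difference was 0.64 (adjusted p = 0.0765), or 0.98 without the first treated array (adjusted p = 0.000435). Without the second treated array it was 0.32 and did not pass. The probe set of Nr1d2 that was too dim to test had the same order, 4.05, 5.34 and 4.76, on treated arrays. Withdrawal minus treated was −0.45 at both tested probe sets (adjusted p = 0.161 and 0.166), and −0.82 and −0.79 without the first treated array (adjusted p = 0.000439 and 0.00104). With array weights these were −0.68 and −0.59 (adjusted p = 0.000614 and 0.00218). Without the second treated array these were −0.17 and −0.13, and neither passed.

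Dbp, a PAR bZIP activator that drives D-box genes and is itself a direct output of CLOCK and BMAL1, had 6.83, 8.34 and 7.68 on treated arrays, against 7.53, 7.34 and 7.65 on withdrawal and 7.30, 7.31 and 6.94 on untreated arrays. The first treated array was the lowest of all 9 and the second the highest, 1.5 apart. All withdrawal arrays lay just above all untreated arrays, but the difference of 0.32 ± 0.29 did not pass (adjusted p = 0.861). The estimate of the spread is shared with the treated arrays. Without the first treated array the SE was 0.16, and the difference still did not pass (adjusted p = 0.376). Treated minus untreated was 0.43 ± 0.29 (95% interval −0.19 to 1.06; adjusted p = 0.269), and 0.82 ± 0.18 without the first treated array (adjusted p = 0.00319), or 0.63 (adjusted p = 0.0246) with quantile normalization as well. Without the second treated array it was 0.07 and did not pass. Withdrawal minus treated was −0.11 ± 0.29 (adjusted p = 0.78), 0.17 after quantile normalization, and −0.50 without the first treated array (adjusted p = 0.03), or −0.24 (adjusted p = 0.314) with quantile normalization as well. Without the second treated array it was 0.25 and did not pass.

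Without the first treated array, 6 of 15 clock probe sets were called higher in treated against untreated islets, against 20.4% of all probe sets, and 5 with quantile normalization as well, against 10.5%. The 6 were those of Dbp, Per1 and Bhlhe40, both of Nr1d2 and Clock 1380098_at, and Per1 was not among the 5. In withdrawal against treated islets 9 were then lower, against 31.9% of all, and 6 with quantile normalization as well, against 16.3%. Without the second treated array 3 of 15 were higher in treated against untreated islets, against 4665 of all 20695 probe sets. In withdrawal against treated islets 5 were then lower, against 6797 of all. Each array was left out in turn, and the first treated array was singled out after its values had been seen.

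The SD of Dbp on treated arrays, 0.754, was larger than that of 98.1% of all tested probe sets, and those of Nr1d2 1370541_at and Per1, 0.666 and 0.638, were larger than 97.0% and 96.6%. After quantile normalization these were 99.0%, 98.6% and 98.8%. The second treated array minus the first was 1.5 for Dbp, 1.3 and 1.32 for Nr1d2 and 1.27 for Per1. It was 1.31 for Nr1d1, which encodes REV-ERB alpha and had 6.39, 7.70 and 7.37 on treated arrays. The spread of Nr1d1 was not particular to treated arrays. On untreated arrays it had 6.28, 7.15 and 6.64, with an SD of 0.436, larger than that of 99.5% of all tested probe sets. On withdrawal arrays it had 6.60, 6.34 and 6.54. The opposite order on treated arrays, first highest and second lowest, was seen for Bhlhe40 (a difference of −1.0), Cry1 (−0.92), Bmal1 (−0.48) and Per2 1378560_at (−0.11), and for Npas2 (−0.60), which is not among the 10 genes. Per2 1378560_at lost this order after quantile normalization (0.07), and Per2 1368303_at had the order of Dbp (0.53). The SD of Bmal1 on treated arrays, 0.239, was larger than that of only 54.4% of all tested probe sets. Of the 15 clock probe sets, 7 had the first treated array lowest and the second highest, and 4 the reverse, where 18.1% and 27.2% of all probe sets did so. After quantile normalization these were 8 and 3, against 24.4% and 21.5% of all. The reverse order was thus about as frequent among clock probe sets as among all. Macrophage markers (5 of 5 on the array) averaged 7.35, 5.77 and 6.45 on the treated arrays, 6.87, 6.84 and 6.97 on withdrawal and 6.44, 6.36 and 6.45 on untreated arrays. Duct markers (3 of 4 on the array) averaged 8.67, 7.72 and 8.02 on treated arrays, and stellate cell markers (4 of 4) 10.34, 9.36 and 10.05. These lists were thus highest on the first treated array and lowest on the second, the reverse of Dbp, Nr1d2 and Per1, and their part in the clock values was not tested. Islet endocrine markers (12.89, 12.76 and 12.75) and endothelial markers (8.23, 7.86 and 7.48) were also highest on the first treated array, but lowest on the third.

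**Figure D3:**
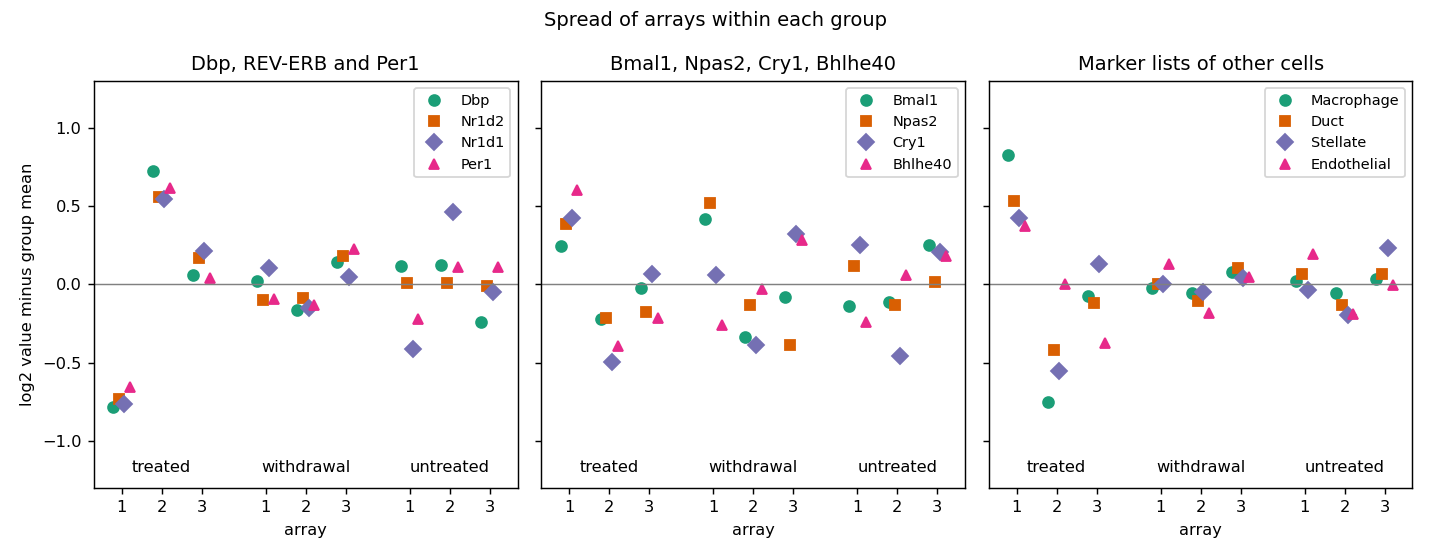
Log2 value minus the mean of its group (y axis) on each of the 9 arrays (x axis, by group) for Dbp, Nr1d2, Nr1d1 and Per1 (left), Bmal1, Npas2, Cry1 and Bhlhe40 (middle) and the mean of 4 marker lists of other cells (right). On treated arrays the left panel is lowest on the first array and highest on the second, and in the middle and right panels every gene and list is highest on the first. The panels show a selection of genes and lists. Among clock probe sets not shown, Cry2 1372548_at had neither order.

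Bhlhe40, which encodes the E-box repressor DEC1, was higher under the drug. It had 6.99, 5.99 and 6.17 on treated arrays, against 5.54, 5.77 and 6.08 on withdrawal and 5.23, 5.53 and 5.65 on untreated arrays. All treated arrays lay above all untreated arrays, while the lowest treated array lay below the highest withdrawal array. Bhlhe40 rose by 0.91 ± 0.24 in treated against untreated islets (adjusted p = 0.017), a 1.88-fold change, and by 0.85 after quantile normalization (adjusted p = 0.0182). Without the first treated array, where it was highest, the difference was 0.61 (adjusted p = 0.0116). The call was lost without the first untreated array (0.79, adjusted p = 0.0611) and without the second (0.94, adjusted p = 0.0584). Withdrawal minus treated was −0.59 ± 0.24 (adjusted p = 0.063), and −0.28 (adjusted p = 0.167) without the first treated array. It passed without the second treated array (−0.78, adjusted p = 0.0206) and without the third withdrawal array (−0.73, adjusted p = 0.0488). It also passed with arrays centred on their medians (−0.62, adjusted p = 0.0474) and with array weights (−0.43, adjusted p = 0.0343). Withdrawal minus untreated was 0.32 (adjusted p = 0.83). The islet endocrine, macrophage, duct, endothelial and stellate markers were highest on the first treated array as well, and their part in the level of Bhlhe40 there was not tested. Bhlhe40 is induced by hypoxia and many other signals besides the clock.

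The promoter of rat Bhlhe40, on GRCr8 at chr4:143174200-143174499, plus strand, from RefSeq, is shown because the gene both binds E-boxes and, among the windows searched, was the clock gene with the full E-box CACGTG, in capitals, 220 bases before the start.
Bhlhe40: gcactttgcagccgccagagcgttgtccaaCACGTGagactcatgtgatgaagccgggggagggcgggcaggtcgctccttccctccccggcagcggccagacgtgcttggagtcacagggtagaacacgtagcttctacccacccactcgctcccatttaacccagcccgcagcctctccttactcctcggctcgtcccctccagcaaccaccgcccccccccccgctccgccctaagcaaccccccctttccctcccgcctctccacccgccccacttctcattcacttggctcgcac
CACGTG occurs in 6.42% of all promoters in the table.

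Of 13 further clock transcription factors, 11 were on the array and 9 were tested. Rora, Bhlhe41 and Nfil3 rose in treated against untreated islets, 0 fell, and the same 3 fell in withdrawal against treated islets, where 20.9% of all probe sets were higher in the first comparison and 32.6% lower in the second. The list medians were 0.19 and −0.45, beside 0.16 and −0.19 for all probe sets. Rora, an activator of Bmal1, had 5.95, 6.60 and 6.53 on treated arrays, against 5.69, 5.71 and 5.66 on withdrawal and 5.44, 5.28 and 5.36 on untreated arrays, so that the 3 groups did not overlap. It rose by 1.0 ± 0.16 in treated against untreated islets (adjusted p = 0.00257) and by 0.99 after quantile normalization, and fell by 0.67 in withdrawal against treated islets (adjusted p = 0.00686). Nfil3, the repressor at D-boxes, rose by 0.85 ± 0.17 (adjusted p = 0.00596) in the first of these comparisons and fell by 0.97 (adjusted p = 0.00171) in the second, and passed after quantile normalization at 0.74 and −0.89. It had 7.27, 6.75 and 6.63 on treated, 5.80, 5.79 and 6.13 on withdrawal and 6.08, 5.97 and 6.04 on untreated arrays. Bhlhe41, the DEC2 paralog of Bhlhe40, rose by 0.74 (adjusted p = 0.0033) and fell by 0.96 (adjusted p = 0.000769), with both calls lost under quantile normalization (0.22 and −0.30).

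Nr1d1 differed by 0.46 (adjusted p = 0.249) in treated against untreated islets and by −0.66 (adjusted p = 0.0881) in withdrawal against treated islets. Without the first treated array these were 0.84 (adjusted p = 0.00463) and −1.04 (adjusted p = 0.00071). With array weights they were 0.85 (adjusted p = 0.00161) and −0.90 (adjusted p = 0.00042). Without the second treated array they were 0.19 and −0.39, and neither passed. The Dbp paralogs Tef and Hlf differed by 0.19 (adjusted p = 0.468) and 0.05 (adjusted p = 0.842) in treated against untreated islets.

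Of 14 clock kinases, ubiquitin ligases and related enzymes, 12 were tested. As deposited, 6 rose and 0 fell in treated against untreated islets, against 20.9% of all probe sets higher and 7.24% lower. In withdrawal against treated islets 8 fell and 1 rose, against 32.6% lower and 11.2% higher. After quantile normalization 0 rose and 0 fell in the first comparison, against 7.75% and 9.44%, and 4 fell and 1 rose in the second, against 14.6% and 14.5%. Csnk1d, the casein kinase that phosphorylates PER proteins, rose by 0.59 (adjusted p = 0.0146) and fell by 0.73 (adjusted p = 0.00303) as deposited, at 0.06 and −0.05 after quantile normalization. Its rise was lost without the second untreated array (0.48, adjusted p = 0.0713). Csnk1e, its paralog, fell by 0.56 in withdrawal against treated islets (adjusted p = 0.0252) and by 0.49 after quantile normalization (adjusted p = 0.0381), a call lost without the second treated array (−0.49, adjusted p = 0.0645), the first withdrawal array (−0.55, adjusted p = 0.0744) or the second (−0.51, adjusted p = 0.0912). Usp2, a deubiquitinase whose transcripts cycle, was the enzyme that rose in withdrawal against treated islets. It had 6.83, 7.35 and 7.17 on withdrawal arrays, against 6.26, 6.77 and 6.34 on treated arrays, a rise of 0.66 ± 0.19 (adjusted p = 0.016), or 0.80 after quantile normalization (adjusted p = 0.0156). Untreated arrays, at 6.55, 7.07 and 6.61, overlapped withdrawal arrays, and withdrawal minus untreated was 0.37 ± 0.19 (adjusted p = 0.732). Usp2 was picked out after its values had been seen, and its call was lost without the second withdrawal array (adjusted p = 0.079).

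Of 6 clock output genes 4 rose in treated against untreated islets, Nampt, Por, Noct and Wee1, and 0 fell, with a median of 0.52 beside 0.16 for all probe sets. The shares of all probe sets to read these 3 lists against are 20.9% higher as deposited and 7.75% after quantile normalization. After quantile normalization 1 output gene rose. In withdrawal against treated islets 4 fell as deposited, against 32.6% of all, and 2 after quantile normalization, against 14.6%. Of 6 glucocorticoid-induced genes 5 were measured, and 3 rose in treated against untreated islets, or 1 after quantile normalization. Fkbp5, a glucocorticoid receptor co-chaperone, rose by 0.90 ± 0.17 (adjusted p = 0.00484) and by 0.61 after quantile normalization (adjusted p = 0.0315). Tsc22d3 and Sgk1, which glucocorticoids also induce, differed by 0.11 (adjusted p = 0.541) and 0.40 (adjusted p = 0.118), and both turned below 0 after quantile normalization, at −0.34 and −0.09. Of 6 cAMP-responsive and immediate early genes 3 rose on both scales, and Fos, a subunit of the AP-1 factor, was 2.05 ± 0.36 higher (adjusted p = 0.00344) and 1.53 higher after quantile normalization (adjusted p = 0.00991). Crem, whose ICER product closes the cAMP response, differed by −0.41 (adjusted p = 0.0861) and fell by 0.74 after quantile normalization (adjusted p = 0.0125). In withdrawal against untreated islets 0 genes of these 5 lists passed as deposited, against 0.159% of all probe sets. Some of them passed with array weights, a setting that called 15.8% of all.

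Likeness to Dbp and to Bmal1 was measured as the root mean square difference of mean-centred log2 values over the 9 arrays. The 3 genes nearest to Dbp were Pigr, Prpf38b and Hpn, at 0.144, 0.153 and 0.183, where the median over all tested probe sets was 0.495. Pigr, the polymeric immunoglobulin receptor gene, had 7.02, 8.15 and 7.81 on treated arrays, the same order as Dbp. Those nearest to Bmal1 were Mrpl47, C12h7orf50 and Maneal, at 0.146, 0.156 and 0.160, with a median over all of 0.411. Mrpl47, a mitochondrial ribosomal protein gene, had 5.93, 5.65 and 5.74 on withdrawal arrays, against 6.61, 6.13 and 6.39 on treated and 6.20, 6.26 and 6.39 on untreated arrays.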

How the data were processed

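Islet RNA was measured on 9 Affymetrix arrays, 3 per group, and groups were taken from the sample titles. The authors deposited 1 table of probe set values, made with RMA, MAS5 or both per the submitters' processing notes, and from their range these are read here as log2 values. The roles and versions of both tools are not given in the sources used here. The number of arrays limits the precision.

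The table held 31099 probe sets, of which 57 controls were left out. The platform annotation gave 1 symbol to 20826 probe sets, several to 436, which stay unnamed, and none to 9780. RefSeq (GRCr8) supplied current symbols, for 20758 through the gene number and for 2 through an accession, leaving 66 unmatched, as well as the promoters. The lowest 33.3% by mean log2 were left out, and 20695 were tested on all 9 arrays by group, without covariates, using lmFit and eBayes of limma 3.58.1 (R 4.3.3), with Benjamini-Hochberg adjustment over all of them and a threshold of 0.05. The labels call the arrays biological replicates. Every clock probe set is reported; a gene outside the clock list counts through its brightest probe set. Other genes were named from a fixed set, except Usp2, Nampt, Por, Noct and Wee1.

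The members, lists and tests were chosen with earlier results of these data known. Alternatives were quantile normalization, median centring, testing all probe sets or the upper 50%, trend and robust settings, array weights, the 6 arrays compared, a replicate block and each array left out; quantile normalization without the first treated array was chosen later, after seeing the data. The fit was tested on simulated data. Python 3.11.15 with matplotlib 3.10.9 made the figures.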

Additional observations from a re-analysis of the deposited data

How the results depend on the processing

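No clock result past the threshold changed sign under any alternative run. Of 1306 values of 73 gene results under the alternatives, 1186 kept both direction and side of the threshold, 53 newly passed, 26 no longer passed and 41 changed sign, all 41 of them of results that did not pass. What depends on brightness cannot be separated from array scale with 3 arrays per group, and the cause of each change below was not tested.

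For treated minus untreated, 5817 probe sets were called (74.2% higher), 3558 after quantile normalization (45.1% higher) and 3209 in the 6 arrays compared, and 2033 to 6319 with an array left out. Clock probe sets called were 3, all higher, against 4318 of all 20695 probe sets higher. They were 5 with array weights (4664 of all higher), with the replicate block (4764) and with quantile normalization without the first treated array (2179). With an array left out they were 1 (without the second untreated array, 1464 of all higher) to 6 (without the first treated array, 4215). For withdrawal minus untreated, 33 were called, 87 after quantile normalization, 3275 with array weights, 494 in the 6 arrays compared, 50 with the replicate block and 409 with quantile normalization without the first treated array. The count was 7 to 398 with an array left out. Clock probe sets called were 0 there, except 3 with array weights. For withdrawal minus treated, 9057 were called (25.5% higher), 6032 after quantile normalization (49.9% higher) and 5587 to 9511 with an array left out. Clock probe sets were 4, all lower, against 6745 of all 20695 probe sets lower. They were 9 with array weights (7755 of all lower). With an array left out they were 4 to 9, the 9 without the first treated array (6597 of all lower).

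Same-numbered arrays of different groups did not deviate together in every pair (correlations of −0.2827 to 0.5038, beside −0.4846 to 0.4061 for other pairs). With 3 arrays per group these values cannot settle whether arrays of 1 number share a batch or a pairing. The main fit uses the replicate numbers only as names. With the replicate block both tested Nr1d2 probe sets passed in treated minus untreated (adjusted p = 0.0327 and 0.0382) and Cry1, Nr1d1 and Npas2 in withdrawal minus treated (adjusted p = 0.0447, 0.0428 and 0.0328).

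After quantile normalization treated minus untreated changed sign for Per1 (−0.21), Per2 1368303_at (−0.09), Cry2 1372548_at (−0.07), Clock 1389456_at (−0.04), Hlf (−0.01), Tsc22d3 (−0.34) and Sgk1 (−0.09). Withdrawal minus treated changed sign for Per1 (0.06), Per2 1378560_at (0.08), Dbp (0.17), Tef (0.07), Tsc22d3 (0.36) and Crem (0.28). With quantile normalization without the first treated array it did so for Per2 1378560_at (0.05), Per3 (−0.13), Hlf (0.02), Tsc22d3 (0.25) and Crem (0.22), and treated minus untreated for Hlf (−0.06) and Tsc22d3 (−0.23). Array weights turned Hlf to −0.25 in treated minus untreated and 0.13 in withdrawal minus treated.

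With an array left out, treated minus untreated ran from −0.15 to 0.49 for Per1, −0.01 to 0.27 for Per2 1368303_at, −0.19 to 0.20 for Per3, 0.00 to 0.48 for Cry1, −0.04 to 0.35 for Tef and −0.05 to 0.24 for Hlf. Withdrawal minus untreated ran from −0.08 to 0.25 for Per3, −0.39 to 0.04 for Cry1 and −0.17 to 0.04 for Clock 1380098_at. Withdrawal minus treated ran from −0.10 to 0.25 for Per3, −0.50 to 0.25 for Dbp and −0.32 to 0.07 for Tef.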
